A study of Mus musculus with 2 samples.

Results

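The transcripts of 5 Fc receptor genes, Fcgr1, Fcgr2b, Fcgr3, Fcgr4 and Fcer1g, were followed in spleen cells of a mouse with sickle cell disease (SCD) and of a control mouse. They were chosen by symbol from the 26124 genes of the deposited matrices and not by their levels, though earlier results of these data were known. Single cells had been captured in droplets for RNA sequencing (10x Genomics, 3′ v3.1, where a unique molecular identifier, UMI, marks each captured transcript end) from 1 spleen suspension per group, and each suspension had been enriched for dendritic cells (DCs) by depleting other cells with magnetic beads. The control, called wild-type, was a non-sickling littermate type that was homozygous for Hbatm1Paz, heterozygous for Hbbtm1Tow and hemizygous for the human sickle globin transgene Tg(HBA-HBBs)41Paz. The SCD mouse (Berkeley model) was homozygous for all 3 alleles. These genotypes are those of the labels, by which both mice carried the sickle transgene and the targeted alpha globin locus. Both were untreated, 12 to 16 weeks old and of mixed genetic background.

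The wild-type library held 10845 cells and the SCD library 13447, and 9424 and 10636 cells passed the filters, with 60855219 and 99614660 UMIs and medians of 4884 and 8281 UMIs per cell. The libraries shared 88 cell barcodes, 22 of them among kept cells. Hbb-bs, a gene of the targeted beta globin locus, was at 2293 counts per 1000000 UMIs (CPM) in wild-type and 20.8 CPM in SCD cells, the direction the labels give. Hba-a1 was at 915 and 792 CPM, although both animals are labelled homozygous for the targeted alpha globin locus. Both animals also carried the human globin transgene by the labels, and the source of the Hba-a1 counts was not tested. The alpha globin genotype could thus not be checked by this gene, and the groups are named here as labelled. With 1 animal per group nothing could be tested across samples, and the 95% intervals in brackets cover counting error only.

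Fc gamma receptors bind the constant part of immunoglobulin G and tell phagocytes that a particle or cell is coated with antibody. Activating receptors signal through an immunoreceptor tyrosine-based activation motif (ITAM), which in the mouse is carried by the common γ chain, the product of Fcer1g, and not by the ligand-binding chain. Fcgr1 encodes the high-affinity activating receptor, and Fcgr3 and Fcgr4 encode activating receptors of lower or intermediate affinity. Fcgr2b encodes the inhibitory receptor, whose immunoreceptor tyrosine-based inhibition motif (ITIM) recruits phosphatases, so that the ratio of activating to inhibitory receptors sets the threshold of a cell for immune complexes. Splenic neutrophils, monocytes, red pulp macrophages and DCs all carry members of the family.

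The contrast that the ratio rests on lies in 2 short coding stretches, shown because they are the known signalling motifs of the inhibitory chain and of the activating adaptor. The letters of the ITIM pattern alone do not tell the chains apart, since a search of the translated transcripts also matched Fcgr1 (3 times), Fcgr4 (1) and Fcer1g (1). Both stretches are given on the coding strand with the codons of the signalling tyrosines in capitals, from GENCODE vM21 transcripts on GRCm38.
Fcgr2b ITIM: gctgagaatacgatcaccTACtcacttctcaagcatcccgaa
Fcer1g ITAM: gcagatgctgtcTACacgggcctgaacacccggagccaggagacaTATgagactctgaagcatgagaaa
The Fcgr2b stretch covers codons 313 to 326 (chr1:170961059-170961100, minus strand) and holds 1 tyrosine codon, 319. The Fcer1g stretch covers codons 61 to 83 (chr1:171229877-171230084, minus strand, spliced) and holds 2, 65 and 76. The coding sequence of Fcer1g, at 258 bases, is far shorter than that of Fcgr1 (1212), Fcgr2b (1020), Fcgr3 (801) or Fcgr4 (747), since most of the γ chain is this cytoplasmic tail and a membrane anchor.

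On GRCm38, 4 of the 5 genes lie within 275749 bases of chromosome 1. Fcgr2b is at chr1:170958617-170976547 (minus strand), Fcgr4 at chr1:171018920-171029761 (plus), Fcgr3 at chr1:171051174-171064935 (minus) and Fcer1g at chr1:171229572-171234365 (minus). Fcgr1 is on another chromosome, at chr3:96282909-96293969 (minus). Fcgr2b and Fcgr3 share stretches of sequence, and 11.4% and 12.8% of the 50-base words of their transcripts also occur in transcripts of other genes. Within the last 500 bases, where 3′ reads fall, 0 of 451 such words were shared for each of the 5 genes. Each UMI counts 1 captured transcript end whatever the transcript's length, and on that basis levels are compared between genes.

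Cells were clustered with the 5 genes left out, and clusters were named from marker genes. Of the 23 clusters, 8 were neutrophil-like (4371 wild-type and 7179 SCD cells), 3 monocyte-like (1066 and 1360), 5 conventional DC-like (cDC-like, 2525 and 658), 2 plasmacytoid DC-like (pDC-like, 790 and 653) and 1 each red pulp macrophage-like (288 and 156), B cell-like (21 and 289) and erythroid-like (57 and 76). The remaining 306 and 265 cells were left unnamed. In classes of more than 1 cluster the libraries filled the clusters unequally, and these are named beside the values.

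Fcgr1 was a transcript of macrophages and monocytes. It stood at 102 CPM (78.6 to 130.2) in wild-type and 131 CPM (98.7 to 170.5) in SCD red pulp macrophage-like cells, and at 59.8 CPM (55.1 to 64.7) and 76.0 CPM (72.1 to 80.0) in monocyte-like cells. The intervals of the 2 libraries overlapped in the macrophages and did not in the monocytes. In neutrophil-like cells it was nearly absent, with 11 UMIs among 15940698 (0.690 CPM) in wild-type and 32 among 60164764 (0.532 CPM) in SCD cells. Monocyte-like cells held 77.9% of all Fcgr1 UMIs of kept cells in wild-type and 86.1% in SCD cells.

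Fcgr3, the most abundant of the ligand-binding chains, was a neutrophil, macrophage and monocyte transcript. In the wild-type library it was highest in neutrophil-like cells, at 406 CPM (396 to 416), followed by red pulp macrophage-like cells at 373 CPM (327 to 424), whose interval overlaps, and monocyte-like cells at 285 CPM (275 to 296). In the SCD library the order was different, with 388 CPM (331 to 453) in red pulp macrophage-like, 240 CPM (233 to 247) in monocyte-like and 203 CPM (199.5 to 207) in neutrophil-like cells, and none of these intervals overlapped. cDC-like and pDC-like cells were far lower, between 14.7 and 23.0 CPM in both libraries.

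Fcgr4 was found in the same classes at lower levels. Red pulp macrophage-like cells had 257 CPM (219 to 299) in wild-type and 167 CPM (129.9 to 211) in SCD cells, the highest class level in each. Neutrophil-like cells had 146 CPM (140 to 152) and 64.9 CPM (62.8 to 66.9). Monocyte-like cells had 124 CPM (117 to 131) and 18.5 CPM (16.6 to 20.5), the widest gap between the libraries among the members.

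Fcgr2b, the inhibitory receptor, had another distribution. It was highest in monocyte-like cells, at 157 CPM (149 to 165) in wild-type and 119.6 CPM (115 to 125) in SCD cells. Neutrophil-like cells had 23.7 CPM (21.4 to 26.2) and 29.1 CPM (27.7 to 30.5), cDC-like cells 22.3 CPM (20.3 to 24.4) and 53.3 CPM (48.0 to 59.1), and pDC-like cells 16.9 CPM (14.3 to 19.8) and 36.5 CPM (32.1 to 41.3). In red pulp macrophage-like cells it was all but missing, with 1 UMI among 627502 in wild-type and 0 among 419956 in SCD cells, where the floor of 3 UMIs is 7.14 CPM and the upper 95% limit 8.78 CPM. Under the filters used, these macrophages thus had transcripts of the 3 activating chains and the adaptor with next to none of the inhibitory chain.

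Fcer1g, the shared adaptor, was the most abundant member everywhere. It stood at 2790 CPM in wild-type and 2086 CPM in SCD monocyte-like cells, at 2378 and 2717 CPM in red pulp macrophage-like cells and at 2232 and 1452 CPM in neutrophil-like cells. cDC-like cells had 911 and 715 CPM and pDC-like cells 937 and 964 CPM. The adaptor therefore went far beyond the activating chains it serves in DCs, where 34.8 Fcer1g UMIs in wild-type and 17.0 in SCD cells were counted per activating-chain UMI of cDC-like cells, against 4.04 and 5.41 in neutrophil-like cells and 5.95 and 6.24 in monocyte-like cells. The γ chain also serves receptors other than those for immunoglobulin G.

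**Figure D1:**
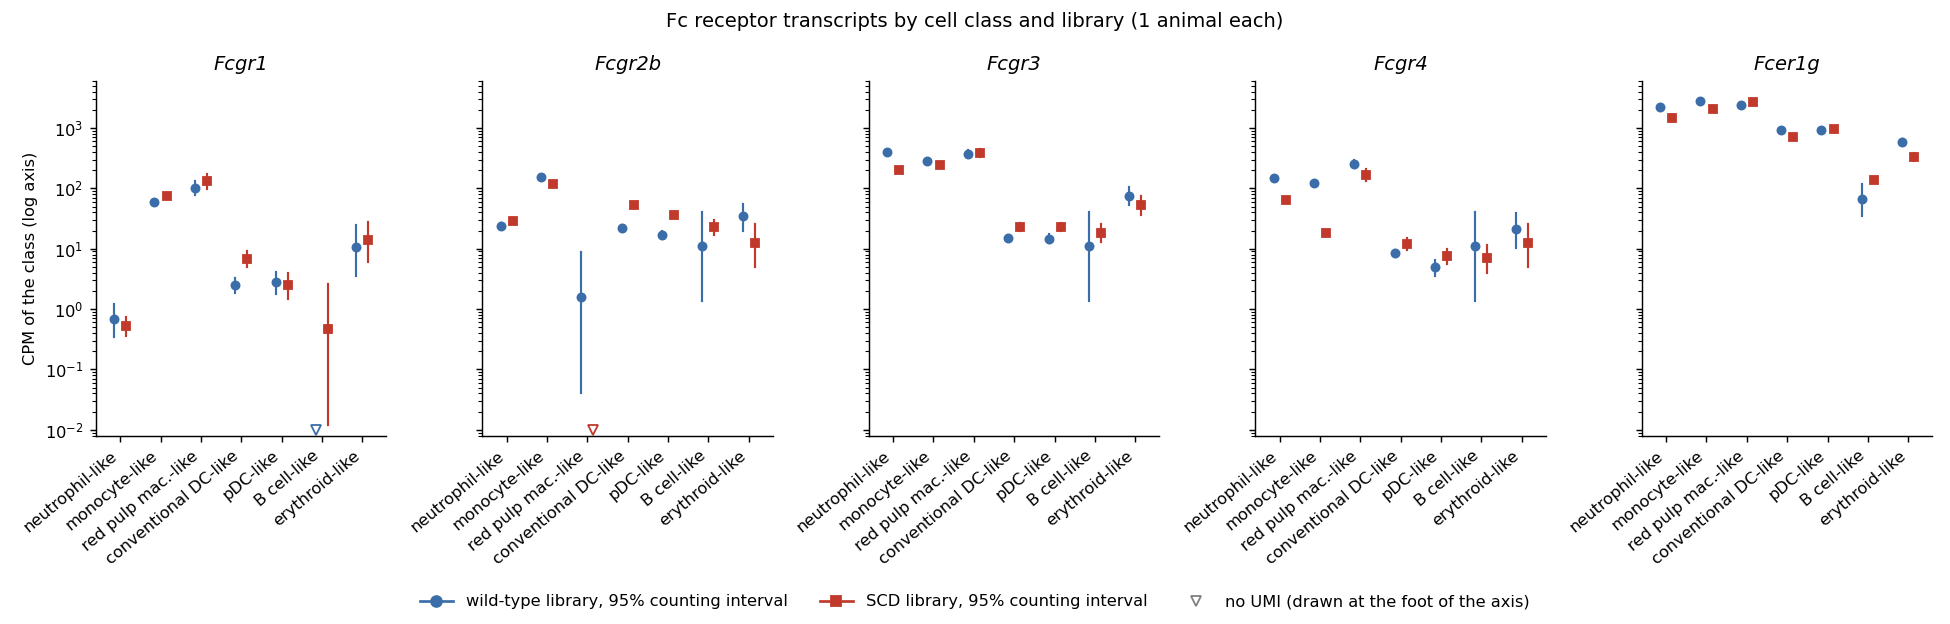
CPM of the 5 genes (log axis) in 7 cell classes of the wild-type (blue circles) and SCD (red squares) libraries, with lines for the 95% counting intervals and open triangles for classes with no UMI. Fcgr1 sits in monocyte-like and red pulp macrophage-like cells, Fcgr2b is at 1 UMI and at 0 in red pulp macrophage-like cells, and Fcgr4 of monocyte-like cells shows the widest gap between the libraries (124 and 18.5 CPM).

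Shares of cells with a UMI were compared after each cell had been thinned to 1000 UMIs, since the libraries differed in depth. Fcer1g was detected in 93.0% (91.3 to 94.5) of wild-type and 86.9% (85.0 to 88.6) of SCD monocyte-like cells and in 88.3% and 78.4% of neutrophil-like cells, and in 99.7%, 99.3%, 98.5% and 99.4% of these before thinning. Fcgr3 was detected in 38.7% (37.2 to 40.1) of wild-type and 23.3% (22.3 to 24.3) of SCD neutrophil-like cells (71.8% and 76.1% unthinned), so that the order of the libraries turned with the depth. In erythroid-like cells, which are not expected to make these receptors, Fcgr3 was found in 1.75% (0.0444 to 9.39) and 3.95% (0.822 to 11.1) at median depths of 7903 and 4546 UMIs.

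The erythroid-like cells are no clean background, since their neutrophil markers summed to 11427 and 8686 CPM (17 genes, 3 and 0 at 0), their red pulp macrophage markers to 842 and 1278 CPM (13 genes, none at 0) and their cDC markers to 5678 and 138 CPM (18 genes, 2 and 8 at 0). Several thinned shares lay at or below the share in these cells, which rests on 1 to 4 cells with a UMI of the gene, and are not read as expression, though this does not show that they are background. For Fcgr1 (erythroid-like share 1.75% and 2.63%) they were those of neutrophil-like (0.116% and 0.112%), cDC-like (0.199% and 0.763%) and pDC-like cells (0 of 790 and 0 of 652 cells, with upper limits of 0.466% and 0.564%). For Fcgr3 they were those of pDC-like (1.013% and 1.84%) and cDC-like cells (1.35% and 1.37%). For Fcgr4 (erythroid-like 1.75% and 5.26%) they were those of cDC-like (0.557% and 1.37%), pDC-like (0.127% and 1.07%) and SCD monocyte-like cells (2.28%), and for Fcgr2b (erythroid-like 1.75% and 1.32%) those of red pulp macrophage-like cells (0.479% and 0%, with an upper limit of 2.68%) and of wild-type pDC-like (1.39%) and cDC-like cells (1.47%). These shares are given for the neutrophil-like, monocyte-like, DC-like and macrophage-like classes. The median depths of these classes ran from 1334 to 12996 UMIs. In the SCD library Fcgr2b was in 3.51% (2.24 to 5.22) of cDC-like and 2.91% (1.76 to 4.51) of pDC-like cells, above the 1.32% (0.0333 to 7.11) of erythroid-like cells but within its interval.

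Erythroid-like cells were not empty in CPM either. Fcer1g was at 594 and 330 CPM there, Fcgr3 at 75.4 and 53.2 CPM and Fcgr2b at 34.5 (19.7 to 56.0) and 12.4 CPM (4.99 to 25.6). The level of Fcgr2b in wild-type neutrophil-like (23.7 CPM), cDC-like and pDC-like cells was thus no higher than in wild-type erythroid-like cells. It was above the 1.59 CPM (0.0404 to 8.88) of the red pulp macrophage-like cells. The part of free RNA in these low levels was not tested.

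Among neutrophil-like cells, 46.9% in wild-type and 29.0% in SCD cells had a UMI of an activating chain and none of Fcgr2b, and 0.971% and 1.48% the reverse. In monocyte-like cells 5.37% and 4.05% had both.

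Activating against inhibitory transcripts (Fcgr1, Fcgr3 and Fcgr4 UMIs over Fcgr2b UMIs) were then set against each other by class. The ratio was 23.3 (21.0 to 25.9) in wild-type and 9.24 (8.80 to 9.71) in SCD neutrophil-like cells, 2.99 (2.83 to 3.17) and 2.79 (2.66 to 2.93) in monocyte-like cells, 1.17 (1.04 to 1.33) and 0.786 (0.671 to 0.920) in cDC-like cells, and 1.33 (1.07 to 1.66) and 0.907 (0.754 to 1.09) in pDC-like cells. Erythroid-like cells had 3.13 (1.75 to 5.88) and 6.43 (2.88 to 16.9). Over each whole DC class, the shares of cells with an activating chain or wild-type Fcgr2b were no higher than in those cells. The DC class ratios are therefore values only. The cDC-like cluster led by Cd209a and Clec10a, given below, differed from its class in this. The wild-type neutrophil-like ratio also rests on Fcgr2b at 23.7 CPM, no higher than the 34.5 CPM of erythroid-like cells. The part of free RNA in it was not tested. In red pulp macrophage-like cells 459 activating UMIs faced 1 Fcgr2b UMI in the wild-type library (ratio 459, 82.0 to 18169). There 288 faced 0 in the SCD library, which gives 96 with Fcgr2b set to the floor of 3 UMIs and a lower 95% limit of 77.6. With no mitochondrial and ribosomal filter, the SCD class held 7 Fcgr2b UMIs beside 59 of Fcgr1, 181 of Fcgr3 and 74 of Fcgr4. That ratio lies below this limit. The share of each chain also differed, since Fcgr3 made up 70.5% and 68.3% of the receptor UMIs of neutrophil-like cells, Fcgr1 9.55% and 16.7% of those of monocyte-like cells, and Fcgr2b 46.0% and 56.0% of those of cDC-like cells.

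Inside the classes, clusters spread over a wider range than the classes themselves. The lowest ratio among clusters with at least 50 cells in both libraries was that of the larger pDC-like cluster, led by Siglech and Ccr9, at 0.198 (0.118 to 0.319) in wild-type and 0.207 (0.126 to 0.327) in SCD cells. The cDC-like cluster led by Xcr1, a marker of cross-presenting cDC1, had 0.730 and 0.754, and the one led by Cd209a and Clec10a 0.891 and 0.75. In the latter, 9.04% and 10.2% of thinned cells had only activating chains and 6.78% and 9.32% only Fcgr2b. Erythroid-like cells had 5.26% and 9.21%, and 1.75% and 1.32%. Its Fcgr1 was at 20.9 and 33.1 CPM (erythroid-like 10.8 and 14.2) and its Fcgr3 at 79.2 and 70.6 CPM (erythroid-like 75.4 and 53.2). The monocyte-like cluster led by Fn1 and Vcan, genes of classical monocytes, had 2.27 (2.12 to 2.43) and 2.81 (2.66 to 2.97).

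The 5 neutrophil-like clusters with at least 50 cells in both libraries formed a series. The ratio was 2.03 and 2.43 in the dividing cluster led by histone genes, 7.70 and 5.94 in the cluster led by the secondary granule genes Ltf and Ngp, 15.1 and 13.99 in that led by Mmp8 and Thbs1, 47.4 and 58.1 in that led by Retnlg and Stfa2l1, and 42.8 and 53.9 in that led by Il1b and Dusp1. In each of these 5 clusters the intervals of the 2 libraries overlapped. The log2 difference between the libraries (SCD minus wild-type) lay between -0.37 and 0.33 in them, against -1.33 (-1.50 to -1.17) in the class as a whole. The highest ratios rest on Fcgr2b at 11.8 and 9.24 CPM (Retnlg-led) and 18.4 and 13.3 CPM (Il1b-led). These levels are near or below those of erythroid-like cells (34.5 and 12.4 CPM). The smaller clusters led by Elane (8 and 132 cells), Fcnb (17 and 296) and Thbs1 and Cstdc4 (24 and 117) had ratios of 1 and 2.68, 1.92 and 2.63, and 10.1 and 10.6. Their Fcgr2b was at 87.6 and 49.2, 69.3 and 46.9, and 34.3 and 28.6 CPM.

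**Figure D2:**
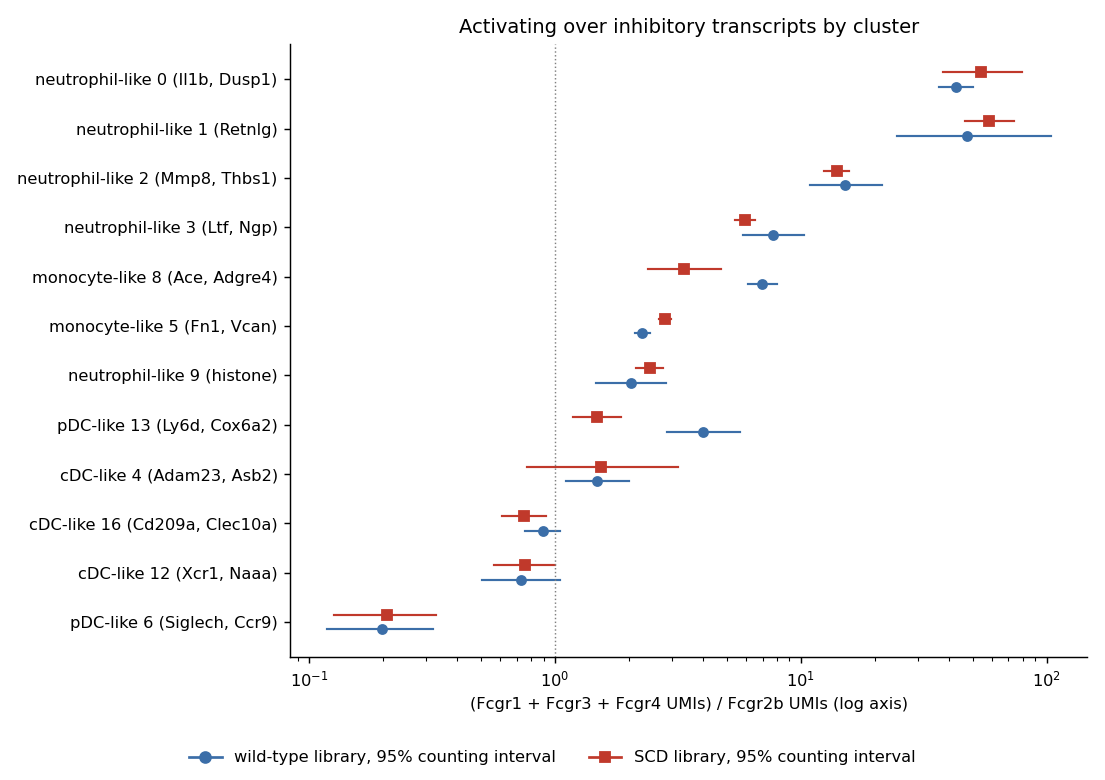
Ratio of activating (Fcgr1, Fcgr3 and Fcgr4) to inhibitory (Fcgr2b) UMIs on a log axis in 12 neutrophil-like, monocyte-like and DC-like clusters with at least 50 cells in both libraries, with 95% counting intervals (cluster 7, with 8 SCD UMIs, is not drawn). The neutrophil-like clusters run from 2.03 to 47.4 in wild-type and from 2.43 to 58.1 in SCD cells, and the symbols of the 2 libraries lie close together except in pDC-like cluster 13 and monocyte-like cluster 8.

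Compared over all kept cells, the libraries differed little in the members. Fcgr1 was at 12.9 CPM in wild-type and 17.0 CPM in SCD cells, Fcgr2b at 44.1 and 49.2, Fcgr3 at 172 and 179.5, Fcgr4 at 67.2 and 46.3, and Fcer1g at 1599 and 1460. None of the 3 members that reached 50 CPM and 20 UMIs in a library passed 2-fold, where 3.64% of the 3328 genes tested were past 2-fold higher and 14.2% lower in the SCD library. These sums mix classes whose shares differed, since neutrophil-like cells gave 26.2% of wild-type and 60.4% of SCD UMIs and cDC-like cells 35.7% and 6.87%. With the SCD class levels weighted by the wild-type UMI shares of the classes, Fcgr3 would stand at 116 CPM, Fcgr4 at 29.0 CPM and Fcer1g at 1222 CPM, below the wild-type levels, and Fcgr1 at 18.1 CPM and Fcgr2b at 54.6 CPM, above them.

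In neutrophil-like cells, Fcgr3 was at 406 CPM in wild-type and 203 CPM in SCD cells, 0.5005-fold (0.486 to 0.516), and Fcgr4 at 146 and 64.9 CPM, 0.445-fold (0.423 to 0.469). Fcer1g was at 0.650-fold (0.642 to 0.659), and Fcgr2b at 1.22-fold (1.10 to 1.37). On the log2 scale with a pseudocount of 5 CPM these were -0.98, -1.11, -0.62 and 0.25. Of the 3 members expressed in this class, 1 (Fcgr4) passed 2-fold lower, against 19.5% of the 2487 genes tested, and 0 passed higher against 1.69%. The median log2 ratio of all genes expressed in the class was -0.38. Fcgr4 fell short of 2-fold at a pseudocount of 20 CPM (-0.97) and with median-of-ratios scaling (-0.73).

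The class was made of different clusters in the 2 libraries. The Il1b- and Dusp1-led cluster held 3713 of the 4371 wild-type but 1035 of the 7179 SCD neutrophil-like cells, whereas the clusters led by Retnlg, Mmp8 and Ltf held 146, 213 and 199 wild-type and 1867, 1770 and 1536 SCD cells. Inside these clusters the libraries were close in Fcgr3 and Fcgr4. Fcer1g was at 0.904-fold (0.874 to 0.936) in the Ltf-led and 0.847-fold (0.818 to 0.878) in the Mmp8-led cluster. It was at 0.930-fold (0.881 to 0.983) in the Retnlg-led and 1.004-fold (0.977 to 1.03) in the Il1b-led cluster. Fcgr3 was at 139 and 136 CPM in the Ltf-led, 248 and 237 CPM in the Mmp8-led, 429 and 409 CPM in the Retnlg-led and 574 and 497 CPM in the Il1b-led cluster, and only in the last did the interval of the fold (0.865, 0.811 to 0.923) leave out 1.

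Fcgr4 followed the same course, at 44.3 and 44.0, 82.8 and 81.1, 131 and 128, and 212 and 219.5 CPM in these 4 clusters, with all 4 fold intervals including 1. Fcgr2b ran the other way, from 47.2 and 42.0 CPM in the dividing cluster to 11.8 and 9.24 CPM in the Retnlg-led cluster and 18.4 and 13.3 CPM in the Il1b-led cluster. Of these 5 clusters, the Il1b-led had the highest Fcgr3 and Fcgr4 and the dividing cluster the highest Fcgr2b, in both libraries.

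With each SCD cluster weighted by its share of the wild-type UMIs, a comparison added after the data had been seen, the neutrophil-like log2 ratios were -0.17 for Fcgr3, 0.03 for Fcgr4, -0.04 for Fcer1g and -0.18 for Fcgr2b, and the difference in the activating to inhibitory ratio was 0.11. Weighted alike, 0.804% of all expressed genes were past 2-fold, against 21.2% unweighted. The clusters were built from those other genes, not from the members. The wild-type cells were also shallower, with a median of 2452 UMIs against 6951, and whether depth had a part in the assignment of cells to clusters was not tested.

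**Figure D3:**
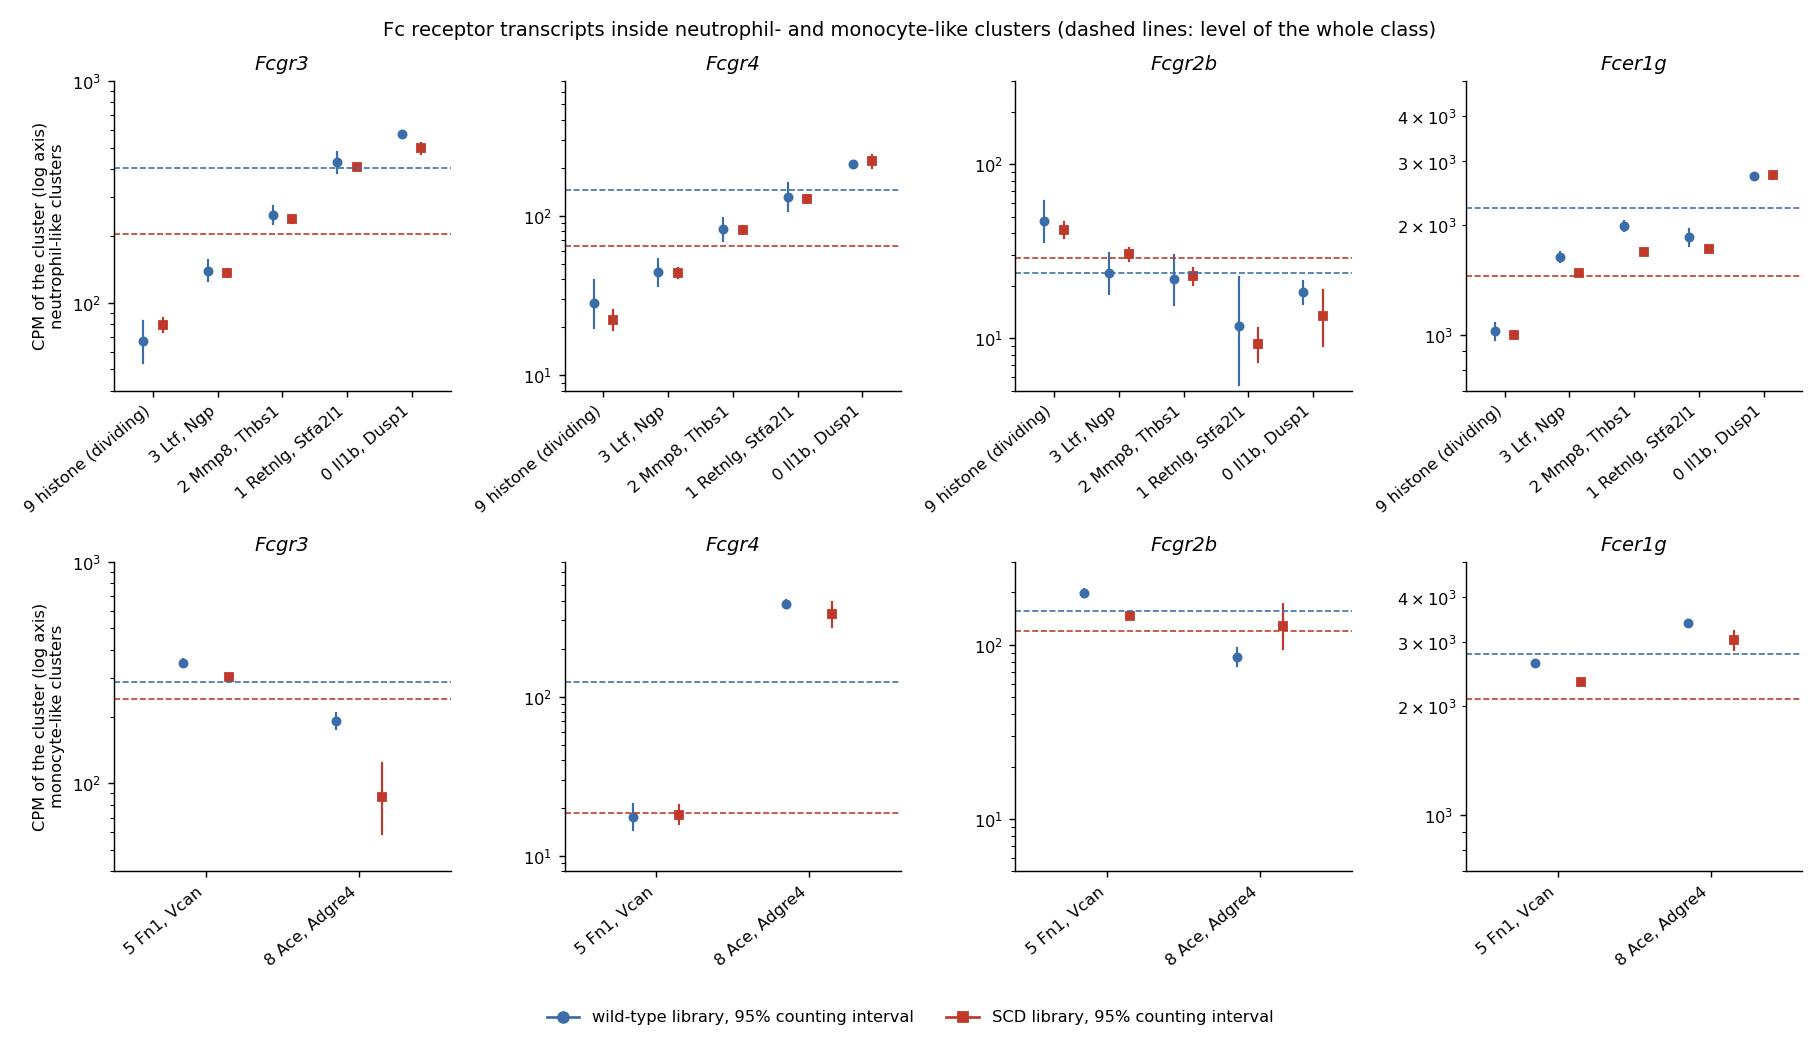
CPM (log axes) of Fcgr3, Fcgr4, Fcgr2b and Fcer1g in 5 neutrophil-like clusters (top) and 2 monocyte-like clusters (bottom) of both libraries, with 95% counting intervals, and dashed lines for the level of the whole class. The class lines of Fcgr3 lie at 406 and 203 CPM in neutrophil-like cells, while within the 5 neutrophil-like clusters the 2 libraries lie much closer; in the Ace-led monocyte-like cluster Fcgr3 is at 191 and 86.8 CPM.

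A grading of single neutrophil-like cells left larger differences among late cells than the clusters did. Cells were divided by the share of late genes among the UMIs of early, intermediate and late neutrophil genes, which is a range of a score and not a cell type. A late share of 0.75 or more was found in 86.0% of wild-type and 34.8% of SCD cells, and one under 0.25 in 10.1% and 49.4%. In the lowest range Fcgr3 was at 145 and 136 CPM and Fcgr4 at 46.2 and 40.4 CPM. From 0.5 to 0.75 Fcgr3 was at 0.747-fold (0.646 to 0.867) and Fcgr4 at 0.706-fold (0.555 to 0.907). In the highest range Fcgr3 was at 568 and 439 CPM (0.773-fold, 0.742 to 0.806), Fcgr4 at 208 and 152 CPM (0.730-fold, 0.680 to 0.783) and Fcgr2b at 18.2 and 8.62 CPM (0.475-fold, 0.357 to 0.626). The median log2 ratio of all 2518 genes expressed in this range was -0.41, and Fcgr3 (-0.37), Fcgr4 (-0.44) and Fcer1g (-0.43) lay close to it. From the lowest range up, Fcer1g was at 0.858-fold (0.839 to 0.878), 0.867-fold (0.810 to 0.929), 0.834-fold (0.779 to 0.893) and 0.742-fold (0.728 to 0.757). The activating to inhibitory ratio of late cells was 42.8 in the wild-type and 68.7 in the SCD library, a log2 difference of 0.68 (0.29 to 1.08). In the lower ranges, from the lowest up, this difference was -0.17 (-0.40 to 0.07), 0.19 (-0.84 to 1.22) and -0.50 (-1.65 to 0.65).

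In monocyte-like cells, Fcgr4 was at 124 CPM in wild-type and 18.5 CPM in SCD cells, 0.149-fold (0.132 to 0.168). This was the largest difference of any member expressed in a class, and it came with smaller ones in Fcgr1 (1.27-fold, 1.15 to 1.40), Fcgr2b (0.762-fold, 0.715 to 0.813), Fcgr3 (0.840-fold, 0.801 to 0.880) and Fcer1g (0.748-fold, 0.736 to 0.759). Of the 5 members expressed here, 1 (Fcgr4) passed 2-fold lower, against 5.85% of the 3455 genes tested, and 0 passed higher, against 3.18%. Fcgr4 reached 50 CPM only in the wild-type library, so this count gives no support to the difference. The activating to inhibitory ratio differed by -0.10 (-0.20 to 0.01) on the log2 scale, an interval that includes 0. The share of SCD cells with Fcgr4 (2.28%) was below that of erythroid-like cells. Between the libraries the 17 neutrophil markers of the class went from 4367 to 8945 CPM (none at 0) and the 18 cDC markers from 3098 to 1023 CPM (1 at 0 in each), and their part in the result was not tested.

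Fcgr4 was highest in the cluster led by Ace, Cd36 and Adgre4, genes of non-classical patrolling monocytes. That cluster had 382 CPM in wild-type and 328 CPM in SCD cells (0.859-fold, 0.704 to 1.04), while the Fn1- and Vcan-led cluster had 17.6 and 18.2 CPM (1.03-fold, 0.820 to 1.31). The Ace-led cluster held 432 wild-type but 54 SCD cells, and the Fn1-led cluster 591 and 945. Weighted by the wild-type cluster shares, the log2 ratio of Fcgr4 was -0.18 instead of -2.46.

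A second clustering of the monocyte-like cells drew the non-classical group differently. It named 357 wild-type and 132 SCD cells as non-classical, of which 353 and 49 were in a sub-cluster led by Cd36 and Cd300e, with Fcgr4 among its leading genes, and 4 and 83 in another led by Lyz1, Ly6i and Cxcl9. Over these cells Fcgr4 was at 453 and 122 CPM (0.268-fold, 0.224 to 0.320), Fcgr2b at 76.1 and 209 CPM (2.75-fold, 2.25 to 3.36) and Fcgr1 at 24.5 and 62.5 CPM (2.55-fold, 1.78 to 3.69). The ratio of activating to inhibitory transcripts was 8.73 in wild-type and 1.69 in SCD cells. Most of the SCD cells came from the sub-cluster that held 4 wild-type cells, so over the mixed set the libraries and the sub-clusters are not separated, while in the Ace-led main cluster Fcgr4 was at 0.859-fold.

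The Fn1- and Vcan-led cluster showed smaller differences. Fcgr1 was at 82.3 and 94.2 CPM (1.15-fold, 1.03 to 1.27), Fcgr2b at 198 and 147 CPM (0.743-fold, 0.691 to 0.799) and Fcgr3 at 349 and 301 CPM (0.860-fold, 0.816 to 0.907). With the inhibitory chain lower by more than the activating chains, the ratio was 0.31 (0.18 to 0.43) higher on the log2 scale in the SCD library. The second clustering of the monocyte-like cells named 28 wild-type and 689 SCD cells as classical and left sub-clusters of 261 wild-type and 5 SCD and of 211 and 2 cells unnamed, so library and sub-cluster are again not separated. In the Ace-led main cluster the difference in the ratio was -1.06 (-1.57 to -0.55). There Fcgr3 was at 191 and 86.8 CPM and Fcgr2b at 85.4 and 129 CPM (1.51-fold, 1.08 to 2.07). The SCD cells of the latter cluster also had more of the red pulp macrophage marker list, whose 13 genes summed to 720 CPM in the wild-type (1 gene at 0) and 2778 CPM in the SCD cells (7 at 0), and the part of such RNA in the result was not tested.

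**Figure D4:**
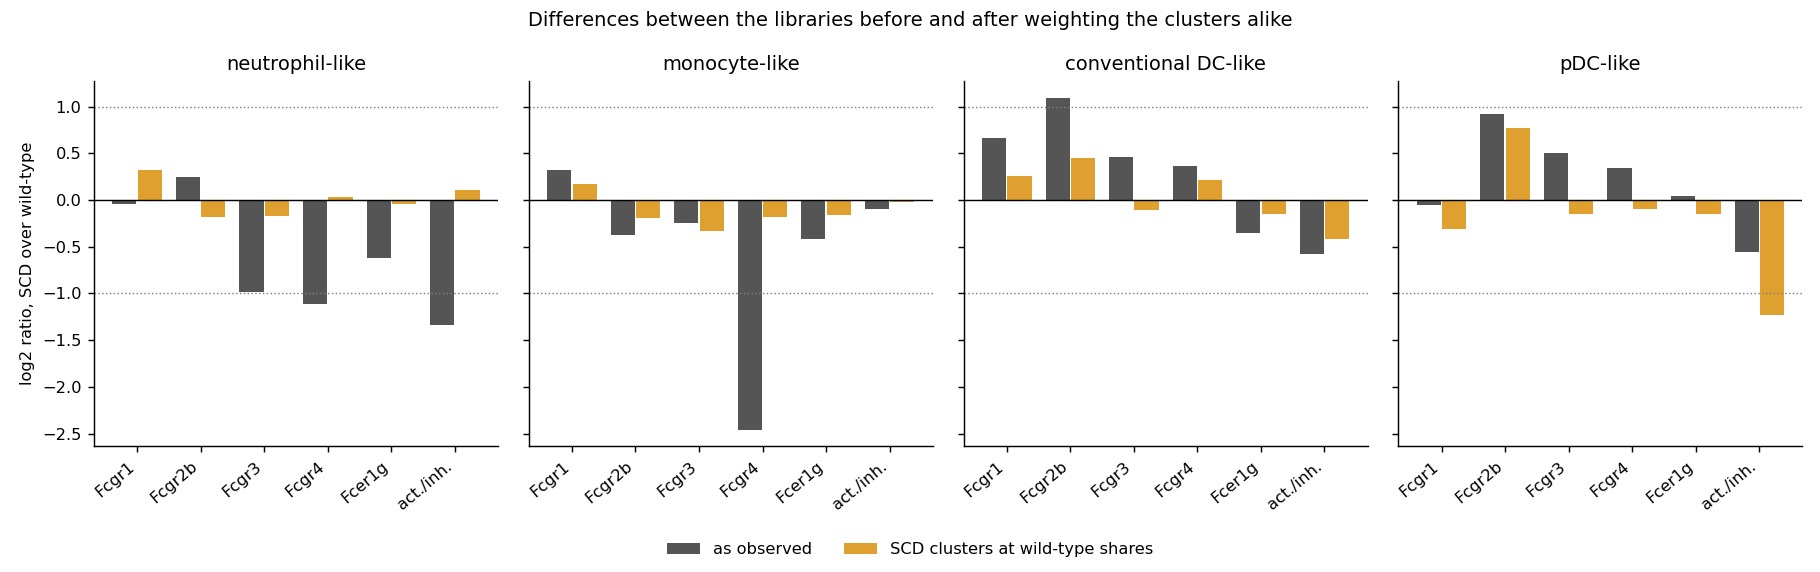
Log2 ratios (SCD over wild-type, pseudocount of 5 CPM) of each member, and the log2 difference of the activating to inhibitory ratio (act./inh.), in 4 classes, as observed (grey) and with SCD clusters at wild-type shares (yellow), with dotted lines at 2-fold. Fcgr4 goes from -1.11 to 0.03 in neutrophil-like and from -2.46 to -0.18 in monocyte-like cells, while Fcgr2b of pDC-like cells goes from 0.92 to 0.77.

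In cDC-like cells, Fcgr2b was at 22.3 CPM in wild-type and 53.3 CPM in SCD cells, 2.39-fold (2.08 to 2.75). Of the 2 members expressed in the class, 1 (Fcgr2b) passed 2-fold higher, against 1.83% of the 3441 genes tested, and 0 passed lower, against 3.66%. Fcgr2b reached 50 CPM only in the SCD library, where it was higher, so this count gives no support to the difference. Fcgr2b fell short of 2-fold at a pseudocount of 20 CPM (0.79), with at least 1000 genes per cell (0.96) and with total count normalization (0.95). Fcer1g, the other, was at 0.784-fold (0.760 to 0.809). The 17 neutrophil markers summed to 2306 and 8945 CPM in the class and the 16 monocyte markers to 1012 and 1453 CPM, none at 0, and their part in the result was not tested. Fcgr1, Fcgr3 and Fcgr4 were below 50 CPM, at 2.49 and 6.87, 15.3 and 22.9, and 8.33 and 12.1 CPM. The activating to inhibitory ratio of the class differed by -0.58 (-0.86 to -0.29) on the log2 scale, but by -0.031 with called doublets removed before clustering. Within clusters it differed by 0.04 (Adam23-led), 0.05 (Xcr1-led) and -0.25 (Cd209a-led), all with intervals that include 0, and by -3.52 (-5.72 to -1.32) in the Ccl5-led cluster, from 8 SCD UMIs.

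Fcgr2b differed widely among the cDC-like clusters. The cluster led by Cd209a and Clec10a, genes of a cDC2 type, had 129 and 159 CPM (1.23-fold, 1.03 to 1.47), which held 303 of 484 wild-type and 216 of 365 SCD Fcgr2b UMIs of the class, and the Xcr1-led cluster 27.2 and 36.9 CPM (1.35-fold, 1.004 to 1.84). The cluster led by Adam23 and Asb2 had 7.23 and 9.59 CPM (1.33-fold, 0.710 to 2.32), and the one led by Ccl5, Fscn1 and Ccr7, genes of mature DCs, 3.79 and 9.37 CPM (2.47-fold, 0.708 to 7.06) from 16 and 5 UMIs. In a second clustering of the DCs, the 44 wild-type and 37 SCD cells named as the Cd209a and Clec10a type of cDC2 had Fcgr2b at only 12.0 and 43.9 CPM, and a sub-cluster of 108 and 107 cells with Cd209a among monocyte genes stayed unnamed. The SCD level was above the wild-type level in all 4 main clusters with at least 50 cells in both libraries, and 2 of the 4 intervals included 1. The remaining main cluster, led by Tuba1b (126 and 17 cells), had 8.11 and 58.9 CPM from 11 and 11 UMIs.

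The Adam23- and Ccl5-led clusters, where Fcgr2b was lowest, held 1394 and 657 wild-type but 211 and 90 SCD cells. Weighted by the wild-type cluster shares, the log2 ratio of Fcgr2b was 0.45 instead of 1.10. In the Cd209a-led cluster 44 of 177 wild-type and 4 of 118 SCD cells were called doublets, and without them Fcgr2b was at 159.5 and 166 CPM. Its 16 monocyte markers, of which 11 and 10 were above 50 CPM and none at 0, summed to 3952 and 4146 CPM.

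In pDC-like cells, Fcgr2b was at 16.9 CPM in wild-type and 36.5 CPM in SCD cells, 2.16-fold (1.76 to 2.67). The folds within the 2 clusters of the class were close to this. The Siglech- and Ccr9-led cluster (653 wild-type and 447 SCD cells) had 14.7 and 28.9 CPM (1.957-fold, 1.49 to 2.58), and the Ly6d- and Cox6a2-led cluster (137 and 206 cells) 25.6 and 46.6 CPM (1.82-fold, 1.29 to 2.61). The level stayed below the 50 CPM needed for a call, so the class had 1 expressed member, Fcer1g, at 1.03-fold (0.997 to 1.06), and 0 members passed 2-fold, where 2.09% of the 3538 genes tested were past it higher and 0.594% lower. The second clustering of the DCs split the cells it named as pDC nearly by library, with 645 wild-type and 3 SCD cells in a sub-cluster, 5 and 343 in another and 12 and 206 in a dividing one led by histone genes. The libraries and these sub-clusters cannot be told apart.

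Activating chains in pDC-like cells came mostly from the Ly6d-led cluster, where Fcgr3 was at 67.6 and 47.9 CPM, against 1.81 and 4.16 CPM in the Siglech-led cluster. The Ly6d-led cluster also carried the neutrophil marker list, whose 17 genes summed to 25592 CPM in wild-type and 68768 CPM in SCD cells with none at 0, against 681 and 4409 CPM in the Siglech-led cluster. In it 64 of 137 wild-type and 40 of 206 SCD cells were called doublets. Without called doublets Fcgr3 was at 16.4 and 17.8 CPM there, and Fcgr2b at 23.0 and 46.8 CPM, so its difference was as large without them. The activating to inhibitory ratio of the whole class, which differed by -0.55 (-0.95 to -0.15), was not stable, since it was 1.24 with called doublets removed before clustering and between -1.72 and -1.23 under 5 other alternatives. It was -1.44 (-2.003 to -0.87) in the Ly6d-led and 0.07 (-0.87 to 1.001) in the Siglech-led cluster.

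**Figure D5:**
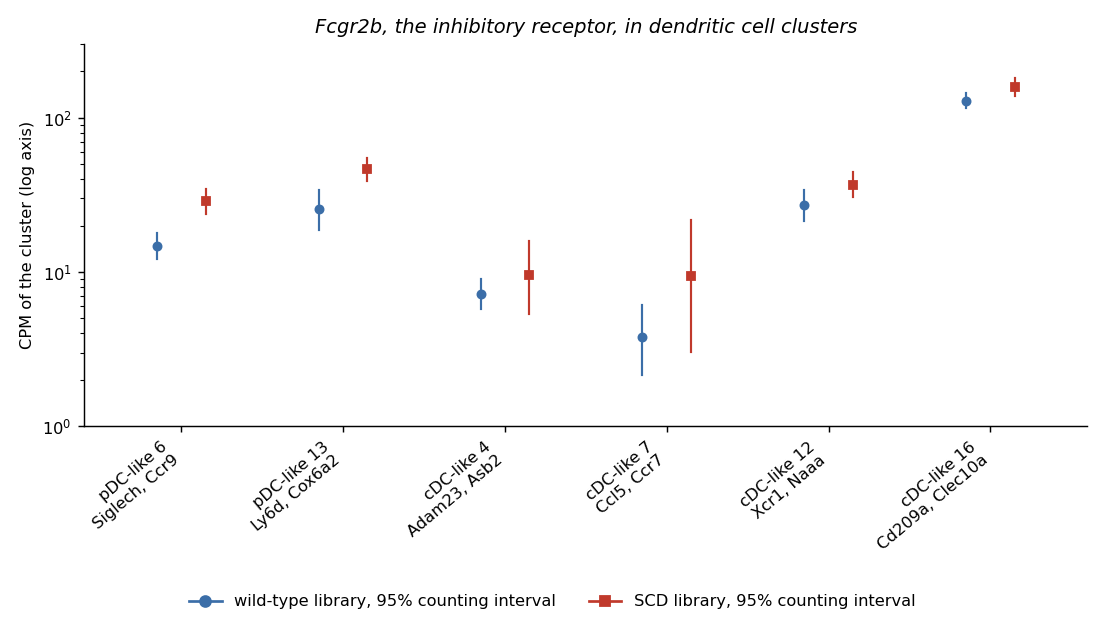
CPM of Fcgr2b (log axis) in the 2 pDC-like and 4 cDC-like clusters with at least 50 cells in both libraries, with 95% counting intervals. The SCD symbol is above the wild-type symbol in all 6, with intervals that do not overlap in both pDC-like clusters (14.7 and 28.9, 25.6 and 46.6 CPM).

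In red pulp macrophage-like cells, which are the spleen's scavengers of aged and antibody-coated erythrocytes, Fcgr4 was at 0.650-fold (0.484 to 0.865) in the SCD library. Fcgr3 at 1.04-fold (0.847 to 1.28) and Fcgr1 at 1.28-fold (0.879 to 1.87) had intervals that include 1, and Fcer1g was at 1.14-fold (1.06 to 1.24). None of the 4 expressed members passed 2-fold, where 3.03% of the 3830 genes tested were past it higher and 5.51% lower. The class was shallow, with medians of 1334 and 1544 UMIs per cell, and formed 1 cluster, led by C1qa and Vcam1. Its 18 cDC markers summed to 8945 CPM in the wild-type (3 at 0) and 1717 CPM in the SCD library (8 at 0), its neutrophil markers to 7841 (1 at 0) and 11235 CPM (none), and its own 13 markers to 31334 and 40145 CPM, and their part in the result was not tested.

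Genes of the pathway around the receptors were read from 4 lists. Of 15 genes that act downstream of ITAMs, 12 were expressed in neutrophil-like cells, and 0 passed 2-fold higher and 4 lower, where 1.69% and 19.5% of all genes of the class did. These were Tyrobp, another ITAM adaptor (6625 and 2494 CPM, log2 ratio -1.41), Pik3cd, a phosphoinositide 3-kinase subunit (-1.37), the Src family kinase Fgr (-1.23) and the kinase Syk, which binds phosphorylated ITAMs (-1.15). The median of the list was -0.70, beside -0.38 over all genes expressed in the class. With clusters weighted alike the 4 stood at -0.15, -0.15, -0.05 and -0.27.

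Elsewhere the ITAM list held few such genes. In monocyte-like cells 1 of 13 expressed passed lower (Fgr, -1.05, but -0.31 with clusters weighted alike, median of the list -0.51 beside -0.08 over all genes, of which 5.85% passed lower), in red pulp macrophage-like cells 1 of 14 (Fgr, -1.48, from 198 and 46 UMIs, beside 5.51% of all genes), and in cDC-like and pDC-like cells 0 of 12 and 0 of 10, beside 3.66% and 0.594% of all genes. None passed higher in these classes. Of 7 genes that act downstream of ITIMs, among them the phosphatase genes Ptpn6 and Inpp5d, 3 to 5 were expressed per class and 0 passed in either direction, with list medians between -0.57 and -0.27 beside medians of all genes between -0.38 and -0.03. With 0.594% to 19.5% of all genes past 2-fold lower and 1.69% to 3.18% higher per class, a count of 0 among so few genes says little.

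Receptors known to pair with the γ chain made up a list of 8. In neutrophil-like cells 3 of the 4 expressed passed lower, namely the C-type lectins Clec4n (Dectin-2, 87.4 and 7.70 CPM, log2 ratio -2.86), Clec4d (699 and 118 CPM, -2.52) and Clec4e (Mincle, 216 and 73.8 CPM, -1.49). Of all genes of the class 19.5% passed lower, and the list median was -2.001 beside -0.38. With clusters weighted alike these were -0.07, -0.37 and -0.17. Clec4d also passed lower in monocyte-like (-1.35, but 0.05 with clusters weighted alike) and red pulp macrophage-like cells (-1.34, from 35 and 8 UMIs), while Clec4n passed higher in the latter (695 and 1498 CPM, 1.10).

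Of 13 other Fc receptor genes 1 at most was expressed in a class. Fcgrt, the neonatal Fc receptor that recycles immunoglobulin G, was at 572 and 488 CPM in red pulp macrophage-like cells, 129 and 69.9 CPM in monocyte-like cells and 73.2 and 101 CPM in cDC-like cells, with no class past 2-fold. Over all kept cells it was at 61.7 and 27.1 CPM (-1.06). Fcrla was the 1 expressed in pDC-like cells, at 240 and 215 CPM.

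The genes whose levels most resembled those of each member were sought over 13 class and library pairs, among 6254 genes, by the Pearson correlation of log2 CPM. Pairs of 1 library share its depth, so these values are a description. For Fcgr1 they were Lrp1 (0.98), Tnfsf12 (0.97) and Cd302 (0.97), for Fcgr2b Vim (0.93), Zbp1 (0.90) and Susd3 (0.87), for Fcgr3 Hacd4 (0.97), Pilrb2 (0.95) and Rab31 (0.94), for Fcgr4 Pilrb2 (0.98), Pilrb1 (0.97) and 6430548M08Rik (0.96), and for Fcer1g Bin2 (0.94), Tnfrsf1a (0.94) and Ltbr (0.94). Among the members themselves Fcgr3 and Fcgr4 were the closest pair (0.92) and Fcgr2b and Fcgr4 the farthest (-0.30).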

How the data were processed

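Spleen suspensions of 1 wild-type and 1 SCD mouse were compared. The values deposited are UMI counts by gene and cell barcode that the authors made with Cell Ranger 4.0.0 on GRCm38.p6 (per the submitters' processing notes) and left unnormalized. The members and lists were chosen with earlier results of these data known. The study's cell filter was applied (500 to 5000 genes, below 15% mitochondrial and 30% ribosomal UMIs). Counts were scaled with scran 1.30.0 (R 4.3.3) and clustered (scanpy 1.11.5, leidenalg 0.10.2, resolution 1, 30 components, 14562 genes, both libraries together, members left out of the 2000 variable genes). Clusters were named from their 8 best markers, so names were rebuilt here. Doublets (Scrublet) were called in 352 wild-type (3.73%) and 247 SCD cells (2.32%) and kept.

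UMIs were summed per library and class. Log2 ratios used a pseudocount of 5 CPM. Genes with at least 50 CPM and 20 UMIs in 1 library counted as expressed. A gene could thus count through only the library where it was higher. Intervals were exact Poisson, conditional binomial or Clopper-Pearson, those of log2 differences were normal approximations. No test across animals was possible. The fold calls were also run on simulated data, and no outcome of that is given here. Named were all members, the 3 genes most like each, and pathway genes past 2-fold, at most 4 per list and direction; Fcgrt, Fcrla, Ptpn6 and Inpp5d were named after their values had been seen. Of 26124 gene IDs 26013 were in GENCODE vM21, used for positions and sequences. Alternatives changed filters, doublets, normalization, resolution, clustering, naming, pseudocount, scaling and thinning.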

Additional observations from a re-analysis of the deposited data

Results flagged for a closer look

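Cells removed by the filters were not used in the comparisons. Among cells with more than 5000 genes (517 wild-type and 1436 SCD), Fcer1g stood at 147 CPM and 371 CPM, respectively, 2.53-fold the wild-type level in SCD cells (2.45 to 2.61), so a higher level than in the control lay in data left out. Both values were far below the 1599 and 1460 CPM of the kept cells. Of the other members in these cells, Fcgr1 was 6.26-fold (4.44 to 9.07, from 35 wild-type UMIs) and Fcgr3 3.04-fold (2.76 to 3.35) the wild-type level. Fcgr2b was 2.57-fold (2.26 to 2.92) and Fcgr4 1.36-fold (1.03 to 1.80). These sums were not split by cell class, so a different mix of cells in the 2 libraries is not separated from a difference within a class. The other removed cells did not show this for Fcer1g. It was at 0.937-fold (0.853 to 1.03) in cells past the mitochondrial or ribosomal limit and 0.963-fold (0.816 to 1.14) in those under 500 genes.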

How the results depend on the processing

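No paired analysis was possible because there was only 1 library of each genotype. Of 44 alternative values of the activating to inhibitory difference (4 classes), 33 stayed within the counting interval, 10 moved beyond it, among them 1 in pDC-like cells that changed sign, and 1 that had been past 2-fold changed sign. In neutrophil-like cells it was -1.01 with at least 1000 genes per cell, and 0.11, reversed, with SCD clusters at wild-type shares, where Fcgr4 also reversed (0.031). In cDC-like cells it was -0.031 with called doublets removed before clustering, -1.11 with each library clustered on its own and -1.05 with cells named by their own marker score. In pDC-like cells it was 1.24, with the sign turned, after removal of doublets before clustering, -1.49 at resolution 2, -1.50 with members among the variable genes, -1.72 with separate clustering, -1.36 with own marker scores and -1.23 with SCD clusters at wild-type shares. All of these but the wild-type shares redraw the classes. The wild-type shares, and the main clusters without called doublets (all 4 differences within their intervals), were added after seeing the data. In the main setting red pulp macrophage-like cells gave no finite difference. Their Fcgr2b UMIs (wild-type and SCD) were 1 and 7 with no mitochondrial and ribosomal filter and 1 and 3 with no upper limit on genes. They were 1 and 2 with own marker scores and 1 and 1 with at least 1000 genes per cell. The difference was not calculated for these. Of 206 alternative log2 ratios of members 156 stayed within the interval, 49 moved and 1 that had been past 2-fold changed sign. Of the 15 ratios 3 crossed 2-fold and 4 changed sign under some alternative. Fcgr2b in cDC-like cells ranged from 0.45 to 1.98, and Fcgr4 in neutrophil-like cells was -0.97 at a pseudocount of 20 CPM and -0.73 with median-of-ratios scaling. With no minimum of 50 CPM, the share of genes past 2-fold lower was 7.003% in neutrophil-like, 2.98% in monocyte-like, 1.85% in cDC-like and 0.389% in pDC-like cells, and past 2-fold higher 0.592% in neutrophil-like and 1.12% in cDC-like cells. Of 100 alternative shares of cells 86 moved. Low members and small clusters are limited by depth, and no value has a replicate.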
